A study of Drosophila melanogaster with 2 samples.

Results

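Divergent protein-coding promoters are places where a pair of genes start close together and are transcribed away from each other. A bbx peak was counted here when protein-coding transcription start sites (TSSs, called starts) of both strands lay within 500 bp of its summit, the base of highest signal. Of the 4753 conservative peaks on 2L, 2R, 3L, 3R, 4 and X, 1130 met this rule (23.8%). They made up 30.4% of the 3721 summits within 500 bp of any protein-coding start (95% Wilson interval 28.9 to 31.9%). The other 2591 promoter peaks had starts of 1 strand in reach, and 1032 peaks lay farther from protein-coding starts. The data were chromatin immunoprecipitation sequencing of whole Drosophila melanogaster embryos aged 0 to 24 h, with 2 biological replicates of 1 group. Both carried a transgene for a bbx-eGFP fusion protein, which was precipitated with an antibody to GFP. The labels do not say which promoter drives the transgene, and all embryonic tissues and stages are pooled, so each value is an average over them. No untagged or other control embryos were analysed here.

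The gene bbx (bobby sox) encodes a protein with an HMG box, a DNA-binding domain that it shares with SOX and TCF factors. In the compact fly genome many housekeeping genes stand head to head, with a short nucleosome-poor stretch between their starts that can serve both. Such promoters often hold the DNA replication-related element (DRE), which the factor DREF binds, and clusters of the shorter CGATA motif, which the boundary factor BEAF-32 binds. TATA boxes, initiators and GAGA elements are more typical of regulated and developmental promoters.

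The stretches between the starts of strong pairs are shown because the summits lay in them and because CGATA or its reverse complement TATCG recurred there; these letters are in capitals. The 8 are the strongest members with starts 60 to 250 bp apart, the summit between them, no annotated exon in the stretch and a place on 2L, 3L, 3R or X. Each runs 5′ to 3′ on the plus strand of dm6, from the base after the minus-strand start to the base before the plus-strand start. Their coordinates are, in the order printed, chr3L:11210584-11210785, chr2L:16257607-16257687, chr2L:7032607-7032720, chrX:6803594-6803683, chr3R:4433896-4433964, chr3R:30039534-30039718, chr3R:9266905-9267018 and chr3R:15263459-15263551. The summit stood at base 58, 51, 58, 64, 54, 157, 41 and 47 of its stretch.
Ube3a/CG7600: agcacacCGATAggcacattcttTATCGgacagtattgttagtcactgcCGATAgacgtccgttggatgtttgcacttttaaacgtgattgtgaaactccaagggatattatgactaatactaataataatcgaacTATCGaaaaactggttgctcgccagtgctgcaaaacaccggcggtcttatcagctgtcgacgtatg
PRL-1/EndoGI: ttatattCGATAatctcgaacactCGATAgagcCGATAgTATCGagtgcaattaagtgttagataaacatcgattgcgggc
Rab30/Caper: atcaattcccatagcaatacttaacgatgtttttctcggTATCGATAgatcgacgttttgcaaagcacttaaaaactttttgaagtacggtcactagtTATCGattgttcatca
C3G/pod1: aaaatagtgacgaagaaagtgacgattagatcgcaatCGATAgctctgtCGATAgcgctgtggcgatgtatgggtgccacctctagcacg
eIF3a/CG1074: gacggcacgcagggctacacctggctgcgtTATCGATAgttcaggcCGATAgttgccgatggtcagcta
janA/Sry-alpha: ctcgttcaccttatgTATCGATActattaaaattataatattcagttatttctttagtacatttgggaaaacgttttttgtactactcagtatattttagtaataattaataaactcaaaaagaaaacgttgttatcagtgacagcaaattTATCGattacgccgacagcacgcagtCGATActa
TrpRS/Vps16A: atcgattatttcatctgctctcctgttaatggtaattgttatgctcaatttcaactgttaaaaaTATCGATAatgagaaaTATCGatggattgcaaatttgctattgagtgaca
eIF2gamma/Set: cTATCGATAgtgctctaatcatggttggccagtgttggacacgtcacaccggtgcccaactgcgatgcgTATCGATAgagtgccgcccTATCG
The stretch between eIF2gamma and Set held 5 matches to CGATA or TATCG, counting both ends of each palindrome TATCGATA, and that between C3G and pod1 held 2. In PRL-1/EndoGI, 4 such matches stood in the 81 bp between the starts.

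For starts more than 300 bp apart, the 150 bp before the start nearer to the summit are shown for the 4 strongest such members that met the same conditions. Each runs in the direction of the gene named first and ends at the base before its start. They are chr3R:30046162-30046311 on the minus strand, chr2L:421451-421600 on the minus strand, chr3L:8525094-8525243 on the plus strand and chr2L:1980756-1980905 on the minus strand, all of dm6. The summits stood at bases 89, 107, 147 and 99.
RpL32 (RpL32/CG7943): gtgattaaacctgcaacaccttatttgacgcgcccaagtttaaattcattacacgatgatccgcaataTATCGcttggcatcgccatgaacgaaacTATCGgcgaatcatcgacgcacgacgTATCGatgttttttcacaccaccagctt
CG11885 (CG11885/CG13692): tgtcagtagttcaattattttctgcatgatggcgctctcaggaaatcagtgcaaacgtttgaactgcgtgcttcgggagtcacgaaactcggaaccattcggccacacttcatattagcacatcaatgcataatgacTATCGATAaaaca
foi (GstO1/foi): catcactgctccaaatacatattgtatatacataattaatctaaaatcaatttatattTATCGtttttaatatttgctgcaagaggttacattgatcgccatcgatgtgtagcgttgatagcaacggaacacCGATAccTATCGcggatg
CG15356 (CG15356/CG15362): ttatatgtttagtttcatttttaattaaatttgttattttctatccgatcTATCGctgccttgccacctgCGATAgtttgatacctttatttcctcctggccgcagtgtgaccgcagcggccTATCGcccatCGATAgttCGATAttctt
The RpL32, foi and CG15356 stretches held 3, 3 and 5 matches to CGATA or TATCG. In CG11885 the only matches were the 2 ends of one TATCGATA just before the start.

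Nearly all members fitted the name divergent. In 1101 of the 1130 (97.4%) the minus-strand start lay to the left of the plus-strand start, so that transcription runs apart. In the other 29 the order was reversed and the genes overlapped at their 5′ ends by 2 to 508 bp (median 207 bp). The 1130 peaks named 1022 distinct gene pairs and 2039 genes, and formed 1059 regions once overlapping peaks were joined. At 66 members more than 1 gene of a strand had a start in reach, and at 21 (1.86%) a non-coding start was in reach as well. Members made up 29.1% of the promoter peaks on 2R, 28.5% on 3L, 30% on 2L and 29% on X, against 35% on 3R (295 of 844). None of the 14 promoter peaks on chromosome 4 was a member. With a limit of 200 bp in place of 500 bp, 509 members remained by count.

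The 2 starts of a divergent member lay 1 to 924 bp apart, with a median of 262 bp and quartiles of 114 and 351 bp. They were at most 100 bp apart in 240 members (21.8%) and 201 to 500 bp apart in 655 (59.5%), while 59 fell between 151 and 200 bp. The rule limits the spacing to 1000 bp and makes spacings over 500 bp rare, since the summit must then lie between the starts. All annotated head-to-head pairs of protein-coding genes up to 1000 bp apart had a median spacing of 301 bp, but 672 of these 2667 were over 500 bp apart. Those with a summit within 500 bp of either start had a median of 298 bp, and those without 308 bp. Of the 1995 annotated pairs up to 500 bp apart, 182 were at most 50 bp apart and 248 were 51 to 100 bp apart. Another 542, 400 and 267 were 201 to 300, 301 to 400 and 401 to 500 bp apart. The closest pair was Atg6/Pisd, an autophagy gene and a phosphatidylserine decarboxylase gene whose starts are 1 bp apart. The widest was CG30122/CheA56a at 924 bp, with the summit 461 bp from one start and 463 bp from the other.

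The 5 closest pairs had starts 1 to 10 bp apart and were all of moderate signal, with the summit outside the gap. Atg6/Pisd had 75.5 pooled, 46.7 in replicate 1 and 33.0 in replicate 2. CG7246/HP1b, with a heterochromatin protein gene, had 121 pooled, 59.1 in replicate 1 and 58.6 in replicate 2, and the summit was 40 bp inside HP1b. CG1360/scra, with the anillin gene scraps, had 112 pooled, 59.996 in replicate 1 and 52.2 in replicate 2. CG11710/mal and Zpr1/CG44532, both with starts 2 bp apart, had 98.8 and 98.7 pooled. The 5 widest, 615 to 924 bp apart, had summits at least 121 bp from the nearer start. RnrS/CG34231, with a subunit gene of ribonucleotide reductase, had 84.5 pooled, 42.1 in replicate 1 and 43.7 in replicate 2. CG30122/CheA56a had 282 pooled, 140.2 in replicate 1 and 216 in replicate 2, the highest of these 10 pairs.

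The summit lay between the starts in 809 of the 1101 divergent members (73.5%, Wilson interval 70.8 to 76.0%). In the other 292 it lay a median of 33 bp inside the nearer gene, and 242 of these were within 100 bp of its start. The plus-strand start was the nearer one in 558 members, the minus-strand start in 540, and 3 were equally far from both, so the strands were nearly even. Relative to the nearer start the median position was -24 bp, negative values being upstream, with quartiles of -50 and 3 bp. At one-strand promoters the median was -19 bp, with quartiles of -61 and 29 bp. The summit was within 100 bp of the nearest start in 979 divergent members (88.9%) and in 1917 one-strand promoters (74%), a difference that having a second start in reach favours by itself.

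How the summit sat in the gap changed with spacing. In pairs up to 150 bp apart, 103 of the 230 summits between the starts (44.8%) lay in the middle one of 3 equal parts of the gap. In pairs from 201 bp apart, 72 of 535 did (13.5%). The median distance from the nearer start was 30.1% of the gap in the close pairs and 13.2% in the wide ones. In bases, the median position was -33 bp from the nearer start at spacings of 101 to 150 bp, -38 bp at 201 to 300 bp and -18.5 bp at 401 to 500 bp. Over the same classes the median position relative to the farther start was -87, -215.5 and -434.5 bp. At 51 to 100 bp the medians were -15 bp from the nearer start and -59 bp from the farther one. At 501 to 1000 bp they were -56 and -478 bp. The nearer start was chosen by its distance to the summit, so the farther distance follows the spacing by definition. At spacings up to 50 bp there was little room between the starts, and 37 of 88 summits (42%) lay there, with a median of 4 bp inside the nearer gene.

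**Figure D1:**
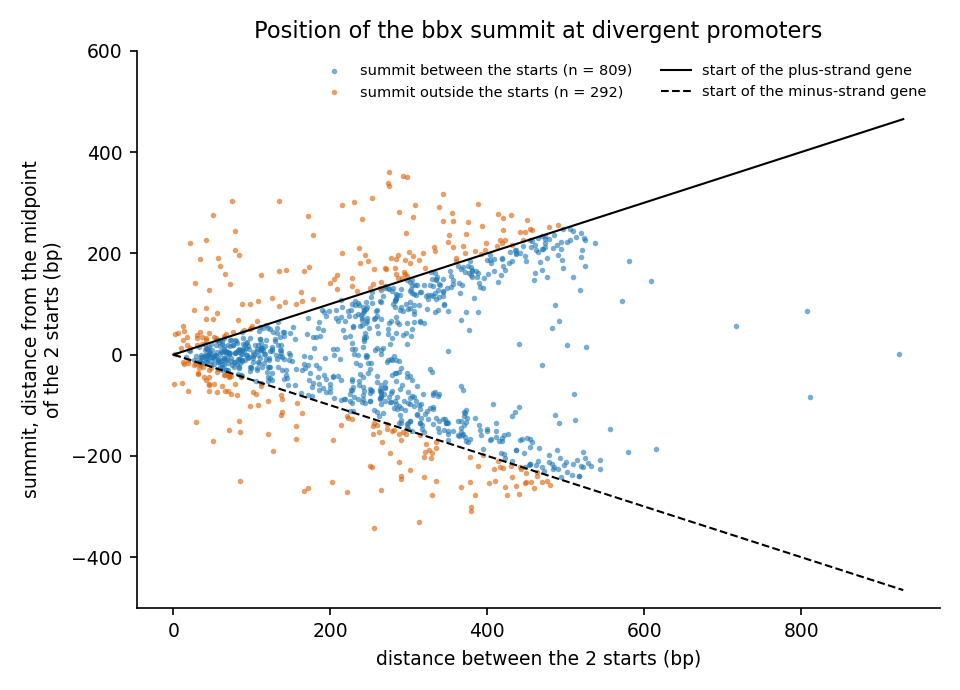
Each point is one of the 1101 divergent members, with the distance between the starts on the x axis and the distance of the summit from their midpoint on the y axis, both in bp. The lines mark the starts; the points gather around the midpoint at small spacings and split into 2 bands just inside the lines at larger ones.

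The 15 strongest pairs had pooled signals of 718 to 1502, in the authors' units for peak enrichment. All 15 summits lay between the starts, 4 to 96 bp upstream of the nearer one, in gaps of 67 to 426 bp. The strongest was TAF1C-like/MESK2, whose names mark a relative of an RNA polymerase I factor and a gene found in a screen around the Ras pathway. Its signal was 1502 pooled, 744 in replicate 1 and 776 in replicate 2, with the summit 61 bp upstream of MESK2 and 304 bp upstream of TAF1C-like. Ube3a/CG7600, which includes a ubiquitin ligase gene, had 1182 pooled, 624 in replicate 1 and 539 in replicate 2, with the summit 58 bp upstream of Ube3a. RpL32/CG7943, with a protein of the large ribosomal subunit, had 1154 pooled, 608 in replicate 1 and 550.0 in replicate 2. These 3 pairs were high in both replicates. In dm6 their peaks span chr2R:21501827-21502192, chr3L:11210426-11210827 and chr3R:30046062-30046413, with the summit upstream of both genes in each.

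Sec61alpha/Daxx paired the channel of protein import into the endoplasmic reticulum with a histone chaperone homologue. It had 1147 pooled, 674 in replicate 1 and 488 in replicate 2, and the summit was 43 bp upstream of Daxx but 311 bp upstream of Sec61alpha. Rpn6/ave, a subunit of the proteasome lid beside an adaptor of Ras signalling, had 1145 pooled, 594 in replicate 1 and 554 in replicate 2. PRL-1/EndoGI, a phosphatase gene beside a nuclease inhibitor gene, had 933 pooled, 556 in replicate 1 and 379.6 in replicate 2 in a gap of 82 bp. Prosalpha7/CG1671, with a core subunit of the proteasome, had 822 pooled, 552 in replicate 1 and 266 in replicate 2, the largest replicate difference of the 15. Replicate 1 was higher in 13 of the 15 pairs.

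At some strong pairs the summit lay close to only 1 of the genes, and at strong pairs with a short gap it lay near both. CG11779/nanos had 820.5 pooled, 478 in replicate 1 and 346 in replicate 2. Its summit was 56 bp upstream of CG11779 and 370 bp upstream of nanos, which encodes a translational repressor of the posterior pole and the germ line. GstO1/foi had 768 pooled, 407 in replicate 1 and 367 in replicate 2, with the summit 4 bp upstream of foi, a zinc transporter gene needed for gonad formation, and 374 bp from GstO1. At hts/CalpA the summit was 63 bp upstream of hts, which encodes adducin, with 897 pooled, 533 in replicate 1 and 362 in replicate 2. At Cul4/udd, a cullin gene 67 bp from a gene of ribosomal RNA transcription, the summit was 23 bp from Cul4 and 44 bp from udd, with 847 pooled, 501 in replicate 1 and 333 in replicate 2. The close pairs Rab30/Caper and C3G/pod1 had their summits 57 bp and 27 bp upstream of Caper and pod1. The same summits were 58 bp and 64 bp upstream of Rab30 and C3G.

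Signal at members was above that at one-strand promoters in the pool and in each replicate. The pooled median was 130.5 at members (quartiles 82.5 and 232, range 2.21 to 1502), against 109 at one-strand promoters and 79.9 away from protein-coding starts. In replicate 1 the medians were 75.5, 66.7 and 43.6, and in replicate 2 they were 60.5, 50.05 and 38.5, in the same order of classes. The ranges overlapped over nearly their whole length. Of the members, 142 (12.6%) were among the 10% strongest of all peaks, against 11.6% of one-strand promoters and 3.29% of the other peaks. The order was reversed among summits within 100 bp of the nearest start, with 13.2% of members and 14.6% of one-strand promoters, and in summits between or upstream of the starts, with 16.2% and 17.1%. A peak of the replicate's own thresholded list overlapped 85.1% of members in replicate 1 and 76% in replicate 2, and 791 (70%) were in both, against 60.4% of one-strand promoters and 37% of the other peaks. Peaks of one experiment are not replicates, so these groups are set side by side with no test.

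Position relative to the starts went with a larger difference than the number of strands. Members with the summit between the starts had a pooled median of 160.0, and those with the summit outside had 84.6. The replicate 1 medians were 89.0 between and 52.9 outside, and the replicate 2 medians were 74.3 and 43.3. One-strand promoters were alike in this: 142 with the summit upstream of the start and 85.9 with it at or downstream of the start. With summits within 100 bp of the nearer start only, 737 members between the starts had a median of 161 and 242 outside had 92.4. The strongest member with its summit outside was ewg/CG3777, which includes the nuclear respiratory factor homologue erect wing. It had 589.5 pooled, 335 in replicate 1 and 263 in replicate 2, with the summit 37 bp inside ewg. Next came Smyd5/Oga, with the gene of the enzyme that removes O-GlcNAc, at 407 pooled, 239 in replicate 1 and 164 in replicate 2, and the summit 9 bp inside Oga. At rno/mri the summit was 9 bp inside mri with 391 pooled, 207 in replicate 1 and 192 in replicate 2, and at PIG-L/psidin it was 79 bp inside PIG-L with 397 pooled, 190.2 in replicate 1 and 209 in replicate 2. These strongest outside summits thus stayed within 79 bp of a start.

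**Figure D2:**
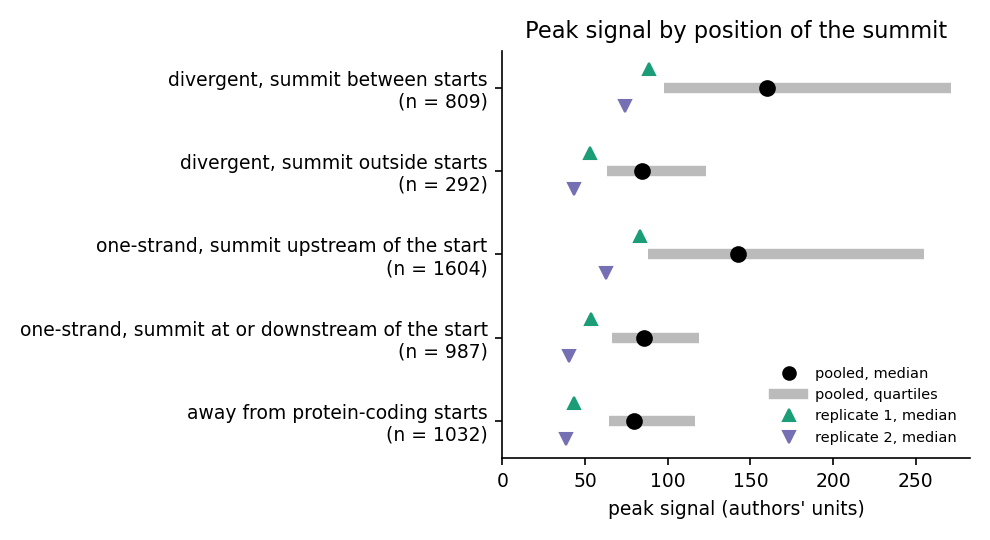
Median peak signal in the authors' units for 2 classes of divergent members, 2 classes of one-strand promoter and the peaks away from protein-coding starts; circles are pooled medians, grey bars run from the lower to the upper quartile, and triangles are medians of replicates 1 and 2. The members between the starts had a pooled median of 160.0 and those outside 84.6, and both replicates were ordered the same way.

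Most members had similar values in the 2 replicates, but peaks were kept in the conservative set for reproducibility, which favours this. The log2 ratio of replicate 1 to replicate 2 had median 0.31 and SD 0.49 over members with both values. Of these 94% lay within 2-fold, against 91.7% over all peaks of the set. The largest ratio between replicates was at the weaker of the 2 summits of stx/ras, with 7.47 in replicate 1 and 183 in replicate 2; there the replicate 2 value was that of one peak shared by both summits. At the weaker summit of Art1/Mcm5, with a subunit of the replicative helicase, the values were 92.7 in replicate 1 and 26.8 in replicate 2, and there the replicate 1 value was that of one peak shared by both summits. CG17078/smo, with the Hedgehog signal transducer Smoothened, had 108 in replicate 1 and 32.6 in replicate 2.

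**Figure D3:**
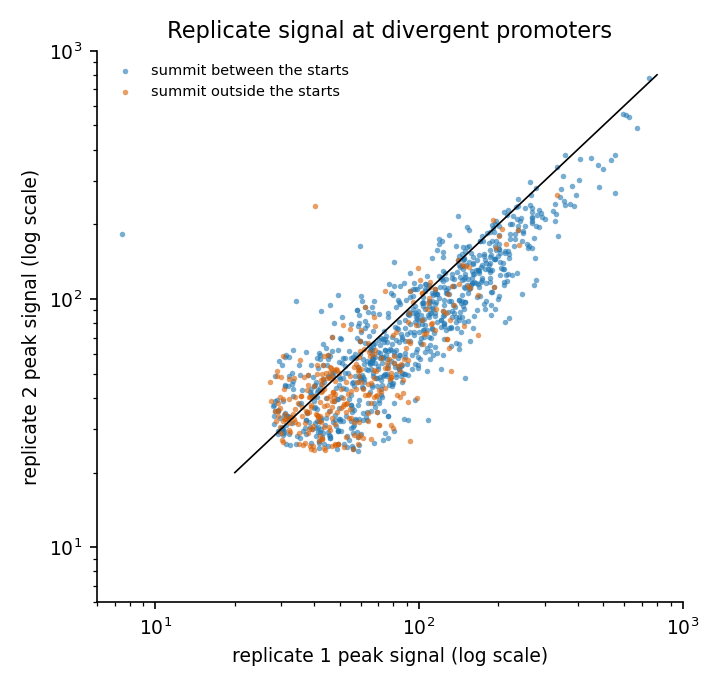
Peak signal of the 1101 divergent members in replicate 1 (x axis) and replicate 2 (y axis), both log scales in the authors' units, with the line of equality. Members with the summit outside the starts sit mostly at the low end, and 94.1% of the divergent members lie within 2-fold between replicates. Peaks were kept in the set for reproducibility, which favours similar values.

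Some low values belonged to a second summit on the flank of a stronger peak. The pooled signal was under both replicate values at 54 members, and 52 of these overlapped a stronger peak of the set. All 5 of the weakest members did, from Agpat3/RAF2 with 2.21 pooled, against 35.5 in replicate 1 and 27.5 in replicate 2, up to CG12379/MagR with 3.43 pooled, 59.2 in replicate 1 and 51.7 in replicate 2. Of the 998 divergent pairs, 100 had more than 1 summit, and in 54 of these each start had its own summit within 100 bp. The 2 summits were 199 to 930 bp apart with a median of 207 bp, and 51 pairs had them 200 to 220 bp apart. In 45 pairs the second signal was under 25% of the first, and in 43 both summits took the same replicate values, so these are not separate measurements in the replicates. Ndfip/CG7484 had a summit 86 bp upstream of Ndfip with 362 pooled and one 41 bp upstream of CG7484 with 20.8 pooled. At mth/Ptpmeg, which pairs the longevity-associated receptor gene methuselah with a tyrosine phosphatase gene, the summits lay 232 and 29 bp upstream of Ptpmeg with 363 and 218 pooled, and mth had none within 100 bp.

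Of the 2667 annotated head-to-head pairs, 1431 had a summit within 500 bp of either start (53.7%). Replicate 1 alone gave 51.6% and replicate 2 alone 41.5%. Counted by gene, 50.5% of the 5052 genes of such pairs had a summit within 500 bp of a start, against 19.6% of the 8804 genes with no opposite-strand start within 1000 bp and 30.9% of all 13945 protein-coding genes. Replicate 1 alone gave 48.8% for pair genes, 20.3% for genes without a partner and 30.7% for all, and replicate 2 alone gave 39.8%, 14.6% and 23.8%. A summit that belongs to the partner counts for both genes at 500 bp. Within 100 bp of a start the shares were 34% for pair genes, 16.1% for genes without a partner and 22.6% for all. In pairs from 201 bp apart, where a summit within 100 bp can seldom serve both, 948 of 3762 starts (25.2%) had a summit within 100 bp. Pair genes had a mean of 1.47 annotated starts and genes without a partner 1.37, and the part of this in the result was not tested.

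Occupancy varied with spacing. Of the 248 pairs 51 to 100 bp apart 172 had a summit within 500 bp of either start (69.4%, Wilson interval 63.4 to 74.8%), above each other spacing class in the conservative set and in each replicate alone. The lowest share was 45.6% at 151 to 200 bp (interval 37.8 to 53.6%), and pairs 401 to 500 bp apart had 59.9%. The stretch within 500 bp of either start grows with spacing, and its part in these shares was not tested. A summit within 500 bp of both starts, a stretch that shortens with spacing, was at 68.1% of pairs 51 to 100 bp apart. It was at 48.5%, 49.2% and 49.4% of pairs 201 to 300, 301 to 400 and 401 to 500 bp apart. Most occupied wide pairs were marked at one start. Of the 1881 pairs 201 to 1000 bp apart, 696 had a summit within 100 bp of 1 start only, 126 had one within 100 bp of each start, and 1059 had none so near. Of the 3762 starts of these pairs, 948 had a summit within 100 bp (25.2%). At such a share, starts marked independently of each other would also leave most marked pairs with 1 start only. Whether the counts depart from independent starts was not tested. The pairs with both were 15.3% of the 822 with any. They were 3.32% of all pairs 201 to 300 bp apart, 3.5% at 301 to 400 bp, 8.99% at 401 to 500 bp and 10.4% at 501 to 1000 bp. Where a member pair had more than 1 summit, these were at least 199 bp apart. Whether closer summits were missed for this reason was not tested.

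**Figure D4:**
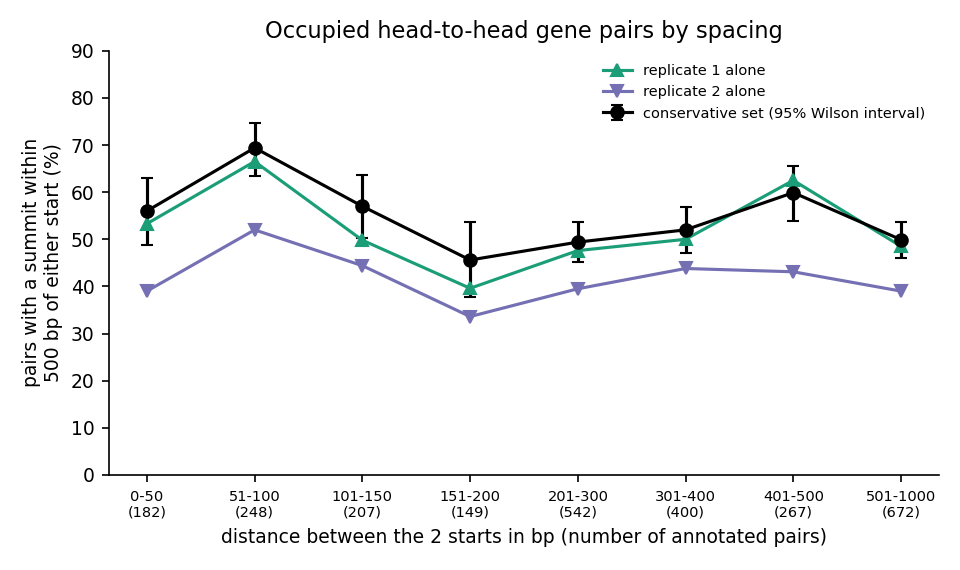
Percent of annotated head-to-head gene pairs with a bbx summit within 500 bp of either start (y axis) in classes of the distance between the starts in bp (x axis, number of pairs in brackets), for the conservative set with 95% Wilson intervals and for each replicate's own list. The class of 51 to 100 bp is highest in all 3 lists, with 69.4% in the conservative set. The searched stretch grows with the spacing.

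Motifs were searched on both strands within 100 bp of a base, so each window held 201 bp. The DRE, TATCGATA, was found at 27.8% of members, against 18.4% of one-strand promoter summits, 4.26% of the other peaks and 6.45% of all protein-coding starts. Its core ATCGAT, which the DRE contains, was at 54% of members and 37.8% of one-strand promoters, and CGATA, which the DRE also contains, was at 78.2% and 57.5%. All protein-coding starts held the core in 16.4% and CGATA in 37.1%. Motif 7, a core promoter motif of housekeeping genes searched by its degenerate consensus, was at 21.2% of members, 12.4% of one-strand promoters and 6.8% of all starts. Motif 1 was at 6.02%, 4.59% and 3.25%, and motif 6 at 2.04%, 1.2% and 1.43% of these classes.

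GAGA and initiator letters were less frequent at members than at one-strand promoters, while the TATA box and the E-box were more frequent. GAGAG, the motif of GAGA factor, was at 15.1% of members, 28% of one-strand promoters and 25% of all starts. The initiator letters TCAGTC or TCAGTT were at 17.7% of members, 22.6% of one-strand promoters and 30.6% of all starts, and the TATA box TATAAA was at 25%, 20% and 26.9%. The E-box CAGCTG was at 21% of members, 16.2% of one-strand promoters and 13.4% of all starts. Of letters that HMG-box factors bind, the SOX core ACAAT was at 50.3% of members, 40.3% of one-strand promoters and 43.7% of all starts, and the TCF core CTTTGA at 7.88%, 8.34% and 11.2%. The median G and C content of the windows was 39.8% at members, 43.8% at one-strand promoters, 46.3% at other peaks and 42.3% at all starts, and its part in these shares was not tested.

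The DRE stood close to the summit, in a search that reached only 100 bp to either side and so caps the distance. Of the 306 divergent members with a DRE, 264 (86.3%) had its centre within 50 bp of the summit, at a median of 21.5 bp, and in 243 (79.4%) the centre was between the starts. Members with a DRE had a pooled median signal of 183, and members without one 114. In replicate 1 these were 99.4 and 67.0, and in replicate 2 they were 80.2 and 54.2. One-strand promoters with a DRE had 212, and those without one 98.7. Members with CGATA had a median of 158, and those without it 78.5. A DRE was present at 6 of the 15 strongest pairs, and the 6 strongest had none, although CGATA recurred in Ube3a/CG7600 and RpL32/CG7943, as their printed stretches show.

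Close pairs with and without a summit in the conservative set differed in the same letters. Of the 637 pairs up to 150 bp apart, the 392 occupied ones held the DRE within 100 bp of their midpoint in 30.4%, against 4.08% of the 245 unoccupied ones. The core was at 55.9% of occupied and 13.1% of unoccupied pairs, CGATA at 77.6% and 42%, and motif 7 at 20.9% and 10.6%. Initiator letters were at 18.4% of occupied and 28.6% of unoccupied pairs, and the TATA box at 20.9% and 34.7%. Shares were closer for the SOX core (53.1% and 53.5%), motif 1 (9.69% and 8.98%), the E-box (29.8% and 24.5%) and GAGAG (13.8% and 17.6%). So were those for the TCF core (9.44% and 9.8%) and motif 6 (2.55% and 2.86%). Pairs of one experiment are not replicates, so these shares are set side by side with no test. The median G and C content was 41.3% at occupied and 39.3% at unoccupied pairs. The part of base composition in these shares was not tested.

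The nearer start of a wide member held the DRE, its core, CGATA and motif 7 more often than the farther one. That start is chosen by its distance to the summit, so its window largely overlaps the summit window. This contrast is therefore not separate from the shares at summits. Among 697 divergent members with starts at least 201 bp apart, the DRE was within 100 bp of the nearer start only in 160, of the farther start only in 78, of both in 27 and of neither in 432. The core was at the nearer start only in 260 and at the farther start only in 94, CGATA in 245 and 72, and motif 7 in 134 and 65. The TATA box ran the other way, with 121 at the nearer start only and 160 at the farther start only, as did the TCF core with 52 and 81. The E-box was even at 91 and 89. The shares at the farther start still exceeded those of all starts, with 15.1% for the DRE and 54.7% for CGATA. The DRE was at 26.8% of the nearer starts and at 26.8% of the summits of the same members.

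**Figure D5:**
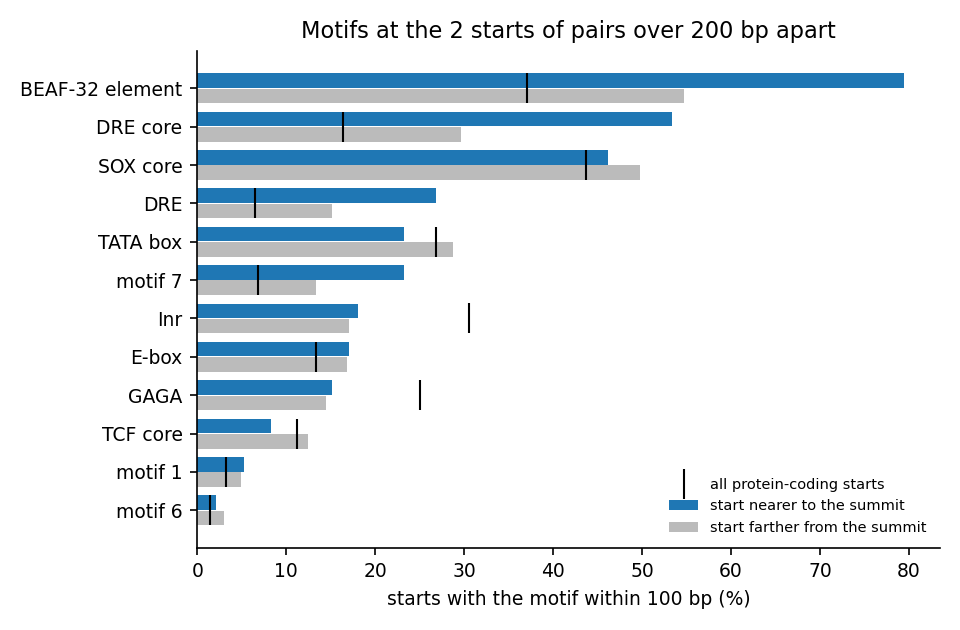
Percent of starts with each of 12 motifs within 100 bp, at the start nearer to the summit (blue) and the start farther from it (grey) of the 697 divergent members with starts at least 201 bp apart; black ticks are all protein-coding starts, and BEAF-32 element stands for CGATA. The nearer start is higher for the DRE (26.8% and 15.1%), its core, CGATA and motif 7, and lower for the TATA box (23.2% and 28.8%). Windows at the nearer start largely overlap those at the summit.

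Many genes of basic cell machinery, which often stand head to head, were in member pairs. Of all 13945 protein-coding genes 14.6% were in a member pair and 36.2% in an annotated head-to-head pair. Of 29 spliceosome genes, 26 stood in head-to-head pairs and 16 were in member pairs (55.2%). SmD3, of the Sm ring that coats spliceosomal RNAs, shared a promoter with the antizyme gene Oda and had 767 pooled, 481 in replicate 1 and 282 in replicate 2. SmE had 529 pooled, 265 in replicate 1 and 262 in replicate 2, with the summit 17 bp upstream of its start. Sf3a1, of the U2 particle, had 447 pooled, with the summit 40 bp upstream of its own start and 480 bp from that of Irc.

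The 2 kinds of ribosomal protein genes were both above the 14.6% of all genes in member pairs. Of 92 cytoplasmic ribosomal protein genes 30 were in member pairs (32.6%), and of 73 mitochondrial ones 32 were (43.8%). In annotated head-to-head pairs stood 59.8% of the cytoplasmic and 79.5% of the mitochondrial ones, against 36.2% of all genes. The summit was nearer to the ribosomal gene in 21 (70%) and 20 (62.5%) of those in member pairs, against 49.9% of all genes in member pairs. RpLP0-like/14-3-3zeta, in the list by its symbol, had 502 pooled, 286 in replicate 1 and 227 in replicate 2 in a gap of 87 bp. Ripalpha/RpL7, with a protein of the large ribosomal subunit, had 377 pooled, 202 in replicate 1 and 179.9 in replicate 2, with the summit 24 bp inside RpL7. Tudor-SN/mRpL17 had 616 pooled, 342 in replicate 1 and 258 in replicate 2, but its summit was 53 bp from Tudor-SN and 346 bp from mRpL17. Likewise mRpL33/norpA had 558 pooled with the summit 65 bp from norpA, the phospholipase C gene of phototransduction. In HLH4C/mRpL30, with 508 pooled, the summit was 4 bp upstream of mRpL30.

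Other machines also lay above the 14.6% of all genes. The proteasome gave 17 of 48 genes (35.4%) and membrane traffic 31 of 83 (37.3%). General transcription factors, polymerase subunits and Mediator subunits together gave 31 of 80 (38.8%). Oxidative phosphorylation gave 22 of 88 (25%), translation factors 13 of 54 (24.1%) and tRNA synthetases 11 of 35 (31.4%). Nuclear pore proteins gave 10 of 21 (47.6%) and the CCT chaperonin 4 of 8 (50%). Each of these lists also had a larger share of its genes in head-to-head pairs than the 36.2% of all genes. Among lists with at least 10 genes in member pairs, median pooled signal was highest for membrane traffic (283) and translation factors (206) and lowest for the transcription machinery (85.3), against 142 over all genes in member pairs. Cell cycle and replication genes gave 9 of 30 (30%), mitochondrial import 3 of 15 (20%) and the exosome 3 of 10 (30%). Among genes in head-to-head pairs, a summit lay within 500 bp of a start at 45.8% of tRNA synthetases and 42.9% of exosome genes. These shares were below the 50.5% of all pair genes, and those of the other lists of this paragraph were above it. Of the translation factors in member pairs, 3 of 13 had the nearer start (23.1%), against 49.9% of all genes in member pairs. At eIF2gamma/Set, not counted among the 3, both starts were 47 bp from the summit. A summit lay within 100 bp of the factor's own start in 9 of 13 (69.2%), near the 64.6% of all genes in member pairs. At eIF3a/CG1074, with 671 pooled, 382 in replicate 1 and 285 in replicate 2, the gap was 70 bp.

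In 12 member pairs both genes were in the lists, out of 20 such pairs annotated, of which 14 were occupied (70%, against 53.7% of all annotated pairs). Taf10b/Taf10 joins the genes of the 2 TAF10 proteins, subunits of TFIID and SAGA complexes, with starts 45 bp apart and 273 pooled, 188 in replicate 1 and 86.2 in replicate 2. TrpRS/Vps16A, a tRNA synthetase and a protein of endosome and lysosome fusion, had 659 pooled, 393 in replicate 1 and 263 in replicate 2. ATPsynCF6/Sec13, of the ATP synthase and of the COPII coat, had 477 pooled, 268 in replicate 1 and 202 in replicate 2. RpL28/eIF1, both of translation, had 129.9 pooled, 62.3 in replicate 1 and 66.2 in replicate 2. Pooled values of the other 8 ran from 369 at eIF2Balpha/Vps13B down to 72.6 at RpS27/Nup37, which joins a small-subunit ribosomal protein to a nuclear pore protein.

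At the 500 bp limit members and excluded peaks had similar signals. The 39 members with the farther start 481 to 500 bp away had a median of 116 pooled, and the 41 peaks with it 501 to 520 bp away had 124. Just inside stood CG11409/Naa30A with the farther start 500 bp away and 485 pooled, 253 in replicate 1 and 232 in replicate 2, Nin/Bub1 with 157 pooled and Spg7/Lint-O with 92.3. Just outside stood PGAP1/cv at 501 bp with 181 pooled and vig2/TTLL5 at 502 bp with 334 pooled. In each of these the summit lay within 28 bp of its nearer start.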

How the data were processed

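ChIP-seq was deposited for 2 biological replicates of bbx-eGFP embryos, with chromatin fragments of 200 to 800 bp per the labels. Peaks were called by the authors on dm6 against a control and ranked by their irreproducible discovery rate (IDR), as the deposited text files state. The sources used here name neither aligner nor caller. The deposited signal is the authors' enrichment value of each peak, with scaling not given, in pooled reads or 1 replicate. The deposited −log10 values of the global IDR served the alternative limits of 0.001 and 0.05, and the thresholded sets hold peaks with an IDR of at most 0.01. Depth per sample is unknown, as the files hold no read totals.

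Peaks lay within the chromosome lengths of release 6. Starts came from the protein-coding transcripts of Ensembl release 115, and sequences from the release 6 genome. Each member took the nearest start of each strand. Replicate values are those of the overlapping peak with the nearest summit in that replicate's own ranked list. Head-to-head pairs were all protein-coding gene pairs with a minus-strand start left of a plus-strand start and at most 1000 bp from it. Their spacing was the smallest among their starts, and a gene could be in more than 1 pair. The rule for members was tested on simulated positions. Work was done in Python 3.11.15 with pandas 2.3.3, NumPy 2.4.6, Matplotlib 3.10.9 and SciPy 1.17.1. Wilson intervals (95%) cover counting error only.

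The members, the 19 gene lists (by symbol) and the motifs were chosen with earlier results of these data known. Named pairs were the 15 strongest, up to 3 of each list, those with both genes in lists, and the 5 at each extreme of spacing, signal, replicate ratio, order, position and the 500 bp limit. Patterns of 4 lists were narrowed after the annotation was read, to drop symbols of other function such as Orco, Orct and Prps. With 1 group there was no comparison between groups and no test. Alternatives were other peak sets, each replicate alone, other distances, merged peaks, 1 start per gene, the closest-spaced starts and other motif windows.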

Additional observations from a re-analysis of the deposited data

How the results depend on the processing

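No paired analysis was possible because both samples belong to 1 group. The pooled median stayed higher at members than at one-strand promoters, and summits between the starts stayed stronger than those outside, under each alternative run for them. With starts within 200 bp there were 509 members, 15.02% of promoter summits, 96.9% in divergent order, median spacing 106 bp, 79.1% between the starts, median signal 144 at members and 118 at one-strand promoters, and a ratio of between to outside of 1.83. With 1000 bp these were 41.65% of promoter summits, 327 bp, 66.1% between, 123 and 105, a ratio of 1.92, and 25.2% of members with a DRE. At an IDR of at most 0.001 the median spacing was 263 bp, 81.45% lay between, medians were 187 and 166, the ratio 1.63, 38.85% of pairs were occupied and 34.1% of members had a DRE. At 0.05, 70.4% lay between, medians were 112.5 and 89.5, 63.8% of pairs were occupied and 24.8% had a DRE. The other thresholded set gave 96.95% divergent, 69.65% between, medians 118 and 96.8 and a ratio of 2.09. Merged peaks gave medians of 138.5 and 116.5 and a ratio of 1.80. With 1 start per gene, 94.9% were divergent, spacing was 243 bp, 69.0% lay between and the one-strand median was 119. Taking the closest-spaced starts gave 96.6% divergent, 242 bp and 68.3% between. A DRE lay within 50 bp of 23.2% of members and within 250 bp of 33.4%. Each replicate alone gave 894 to 1092 members, 29.33 to 33.48% of promoter summits, 97.34 to 97.99% divergent, spacings of 256.5 to 267 bp, 71.68 to 75.11% between, medians of 74.33 to 76.94 at members and 64.99 to 66.53 at one-strand promoters, 41.54 to 51.56% of pairs occupied, 27.75 to 30.76% with a DRE and ratios of 1.752 to 1.764. Replicate lists carry their own signal scale. The ratio of between to outside was added after seeing the data. Stricter lists and shorter distances keep fewer peaks by construction; the cause of the other shifts was not tested. Depth is unknown, so pairs without a summit are undetected in these lists, not shown to be unbound.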

Other observations

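The short lists of developmental signalling genes gave 1 of 9 Notch (11.1%), 3 of 13 Wnt (23.1%), 2 of 14 EGFR (14.3%), 1 of 8 Hedgehog (12.5%) and 3 of 10 Dpp genes (30%) in member pairs, on either side of the 14.6% of all protein-coding genes. A summit lay within 500 bp of a start in 6 of the Notch (66.7%), 9 of the Wnt (69.2%), 9 of the EGFR (64.3%), 3 of the Hedgehog (37.5%) and 6 of the Dpp genes (60%), against 30.9% of all. The strongest of these member pairs was S/ast, which joins Star, a gene needed for export of EGFR ligands, to asteroid, with 581 pooled, 328 in replicate 1 and 241 in replicate 2. RN-tre/mam had 378 pooled, 221 in replicate 1 and 175 in replicate 2, with the summit 76 bp upstream of mam, which encodes the Notch coactivator Mastermind. At ytr/gbb the summit was 57 bp from ytr and 432 bp from gbb, a BMP ligand gene, with 251.0 pooled. At RpS28a/Axn it was 20 bp from Axn, of the complex that degrades beta-catenin, with 124 pooled. Nop17l/sax and put/His4r had summits 4 and 32 bp inside sax and put, which encode BMP receptors.

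Of the 29 members in reversed order the strongest was oys/COX7C, a lysophospholipid acyltransferase gene that overlaps the 5′ end of a cytochrome c oxidase subunit gene by 266 bp. It had 442 pooled, 250.3 in replicate 1 and 202 in replicate 2, with the summit 31 bp upstream of oys and 297 bp inside COX7C. CG6136/Ccm3, pita/Dcp-1 and Pax/Alp12 had 398, 376 and 380.1 pooled, with overlaps of 255, 238 and 140 bp, and in each the summit lay upstream of one gene and inside the other. The median signal of the 29 was 108 pooled.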
